A study of Homo sapiens with 6 samples.

Results

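TEAD1, TEAD3 and TEAD4 encode transcription factors of the Hippo pathway, and CCN1, CCN2, ANKRD1, AMOTL1, AMOTL2, AJUBA and ASAP1 are genes commonly used as readouts of the coactivator YAP or as partners in its control. These 10 genes were chosen by name, with earlier results of these data known. Each was taken from the deposited gene table by exact symbol, 1 row each, out of 61806 rows. They were followed in 6 RNA-seq libraries of HCT116, an established human colorectal carcinoma line. The 3 libraries named si-NC came from cells that received a control short interfering RNA and are labelled wildtype, and the 3 named si-STRIP2 came from cells in which STRIP2, a scaffold protein of STRIPAK, a complex that joins a phosphatase with kinases, was targeted. The number of distinct siRNA sequences, the time after transfection and the cultures behind the libraries are not given in the sources used here, so p-values measure the spread between these libraries, which may be technical. The comparison asked which of these transcripts differed in level after STRIP2 was targeted.

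In the Hippo pathway, MST kinases activate LATS kinases, and LATS kinases phosphorylate YAP and its paralogue TAZ so that they are held in the cytoplasm. When the kinases are inactive, YAP and TAZ enter the nucleus and bind TEAD factors, which supply the contact with DNA. STRIPAK brings a phosphatase to MST kinases and thereby restrains them. Several YAP targets act back on the pathway, among them the angiomotins, which bind YAP.

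The DNA contact of TEAD factors is a short word, GGAATG, read on either strand as GGAATG or CATTCC. RefSeq promoter windows on GRCh38.p14, from 250 bases before to 50 after an annotated start, were found for 6 of the 10 genes, CCN2, ANKRD1, AMOTL1, AMOTL2, AJUBA and TEAD3. CCN1, ASAP1, TEAD1 and TEAD4 had no window. Every stretch that holds the word is shown, whatever the change in its gene. Each is 30 bases long, written 5′ to 3′ on the gene's strand with the word in capitals.
CCN2, chr6:131951454-131951483, minus strand: gtggggaGGAATGcgaGGAATGtccctgtt
CCN2, chr6:131951524-131951553, minus strand: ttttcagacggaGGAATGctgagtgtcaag
ANKRD1, chr10:90921198-90921227, minus strand: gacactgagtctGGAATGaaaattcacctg
ANKRD1, chr10:90921290-90921319, minus strand: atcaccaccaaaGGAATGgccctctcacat
AMOTL2, chr3:134374499-134374528, minus strand: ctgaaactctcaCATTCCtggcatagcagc
AJUBA, chr14:22976884-22976913, minus strand: gggaagttggctGGAATGaagccaaagcaa

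The CCN2 window held the word 3 times, and in the first sequence above 2 copies lie 3 bases apart. Of 35116 promoter windows of the same length, 14.0% held the word at least once, 1.37% at least 2 times and 0.128% at least 3 times. The ANKRD1 window held it 2 times, and 1 window each of AMOTL2 and AJUBA held it once, the former as CATTCC. The other windows of AMOTL2 and AJUBA had 0 copies, as had the windows of AMOTL1 and TEAD3. These other windows of AMOTL2 and AJUBA had starts 62 and 0 bases from the 5′ end of the gene in the deposited table. The annotated starts of the CCN2 and ANKRD1 windows fell on the 5′ end of the gene in the deposited table, whereas those of the AMOTL2 and AJUBA windows shown lay 1032 and 5709 bases inside the gene. The start of the AMOTL1 window lay 61925 bases inside the gene, so that its 0 copies do not describe the sequence at the 5′ end of the row measured. For AP-1 dimers, which often bind beside TEAD factors, the word searched was TGANTCA, with any base at N. Of the windows found for these genes, only that of ANKRD1 held it, against 7.71% of all windows. It was there once, as TGATTCA, and apart from the TEAD words. A match is a description of the letters, and no binding was measured.

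Total counts lay between 17184963 and 21721218 over the 6 libraries, and mitochondrial genes took 4.88% to 8.88% of counts in si-NC and 5.73% to 6.30% in si-STRIP2. STRIP2 itself was at 3.19, 3.77 and 3.81 FPKM in si-NC and at 2.71, 2.53 and 2.58 FPKM in si-STRIP2. FPKM is the authors' expression level, in which counts are divided by the exonic size of the gene and by the column total. The epithelial genes EPCAM, KRT8, KRT18 and KRT19 averaged at least 125.9 FPKM in each group. Of the 9 colorectal epithelial markers 7 were tested, of which 4 were lower, 2 higher and 1 not called. CDH1, the gene of the junction protein E-cadherin, was among the lower ones, at 36.6 ± 1.43 FPKM (SD, n = 3) in the controls and 24.2 ± 0.318 in the si-STRIP2 libraries (log2 fold change -0.60, edgeR adjusted p = 1.57e-14), as was KRT20, at 0.627 ± 0.145 and 0.313 ± 0.0751 FPKM (-1.01, edgeR adjusted p = 0.00935). The 2 higher ones were KRT19 and CDX2. KRT19 went from 140.0 ± 4.07 to 163.8 ± 4.68 FPKM (log2 fold change 0.22, edgeR adjusted p = 1.85e-05). CDX2 went from 2.51 ± 0.270 to 3.28 ± 0.253 FPKM (0.38, edgeR adjusted p = 0.00285). The part of these markers in the results was not tested. Of the same list, the intestinal genes VIL1 and CEACAM5 had at most 3 counts in any library. Summed levels of the marker lists were 691 to 721 FPKM in si-NC and 668 to 691 in si-STRIP2 for 9 colorectal epithelial genes, 2.22 to 2.68 and 1.94 to 2.20 for 6 fibroblast genes, 0.37 to 0.46 and 0.16 to 0.23 for 4 endothelial genes, and 0.08 to 0.23 and 0.04 to 0.17 for 4 leukocyte genes. The fibroblast sums were mostly COL1A1, at 2.28 ± 0.233 FPKM in si-NC and 2.04 ± 0.131 in si-STRIP2. COL1A1 was not called (edgeR adjusted p = 0.0898), and COL1A2 of the same list was at 0 counts in every library. The endothelial sums were mostly KDR, which was lower in si-STRIP2, and their part in the results was not tested.

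In si-STRIP2 cells, transcripts of the secreted proteins CCN1 and CCN2 were lowered the most, AMOTL2, ASAP1, TEAD1 and AJUBA fell by smaller amounts, and TEAD4 rose. AMOTL1 and TEAD3 did not pass the test, and ANKRD1 was too low to test. In bulk RNA, fewer cells with a transcript and less transcript per cell cannot be told apart. Of the 9 genes tested, 6 were called lower and 1 higher by edgeR's quasi-likelihood test at an adjusted p under 0.05. Many genes differed between these groups: 27.0% of the 15687 genes tested were called lower and 27.8% higher, 54.8% in all. With a change of at least 1.5-fold also required, 3 of the 9 were lower (CCN1, CCN2 and AMOTL2) and 0 higher, against 8.10% and 6.35% of all genes tested. In FPKM, the 2 groups were fully separate for 8 of the 9, against 58.6% of all genes tested. The median log2 fold change of the 9 genes was -0.37, and that of all genes tested was 0.014.

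**Figure D1:**
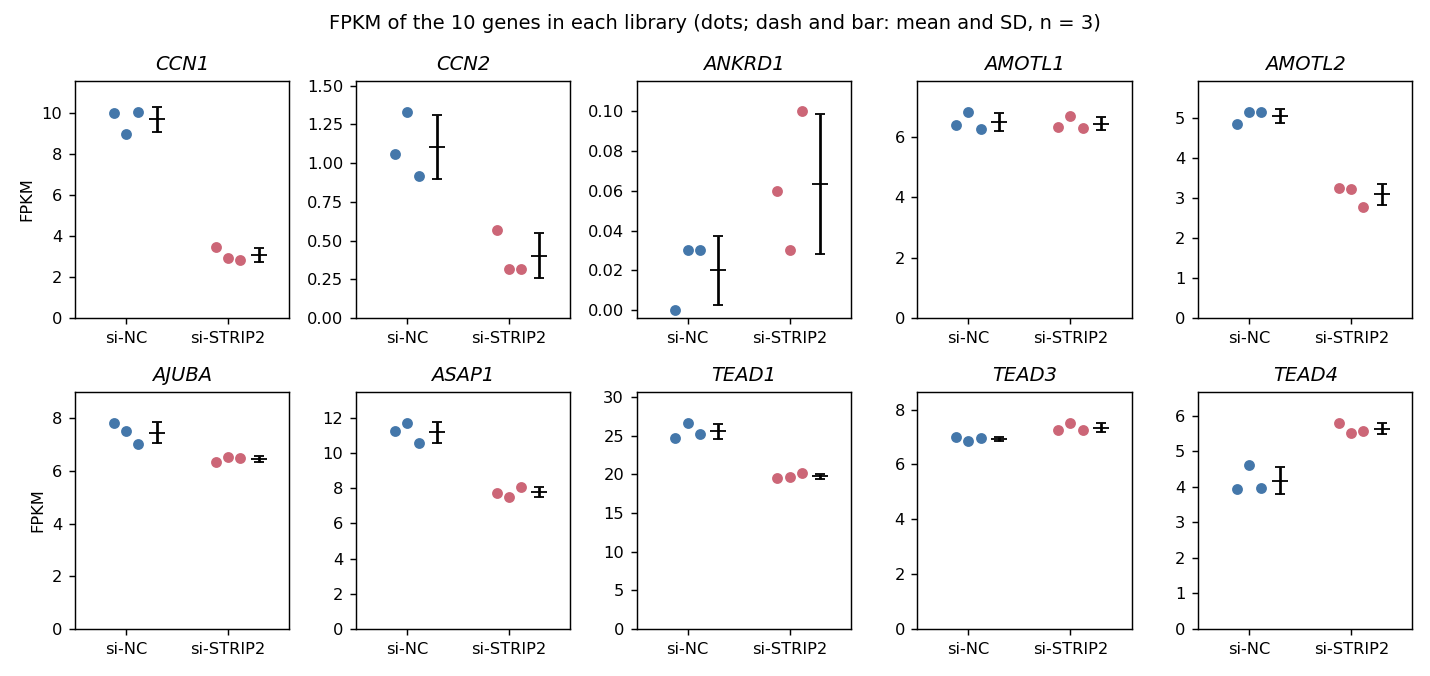
FPKM (vertical axes, linear, drawn on a separate scale for each gene) of the 10 genes in the 3 si-NC (blue) and 3 si-STRIP2 (red) libraries, with the mean and SD of each group beside the dots. CCN1 lies between 9.01 and 10.07 in si-NC and between 2.86 and 3.46 in si-STRIP2, and AMOTL1 has overlapping groups.

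CCN1 (formerly CYR61, ENSG00000142871, chromosome 1, 85580761 to 85584589, plus strand) encodes a matricellular protein that is secreted and binds integrins, and is among the most used readouts of YAP. It had 806, 577 and 640 counts in si-NC and 240, 190 and 182 in si-STRIP2, which correspond to 10.03, 9.01 and 10.07 FPKM and to 3.46, 2.94 and 2.86 FPKM. Every si-STRIP2 library was far below every si-NC library. The mean went from 9.70 ± 0.601 to 3.09 ± 0.326 FPKM (SD, n = 3), which is 31.8% of the control level. On the log2 scale the change was -1.66 ± 0.080 (SE from edgeR), or 3.15-fold lower (edgeR adjusted p = 3.70e-18), and 106 called genes in the transcriptome had a lower log2 fold change. No gene in the table overlaps CCN1.

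CCN2 (formerly CTGF, ENSG00000118523, chromosome 6, 131948176 to 131951372, minus strand), the connective tissue growth factor, is the close relative of CCN1 whose promoter holds the 3 words shown above. Its level was far lower, with 54, 54 and 37 counts in si-NC and 25, 13 and 13 in si-STRIP2, or 1.06, 1.33 and 0.92 FPKM and 0.57, 0.32 and 0.32 FPKM. The groups did not overlap, although si-STRIP2 replicate 1 lay nearer to the controls than the other two. Its log2 fold change of -1.44 ± 0.258 (SE) had a 95% confidence interval from -1.96 to -0.91 (edgeR adjusted p = 1.56e-05), the widest of the 9 genes. On log2(FPKM + 1), where the pseudocount is near the level of the gene, limma gave -0.58. The antisense gene CCN2-AS1 overlaps CCN2 and had 0 counts.

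A change in the proportion of CCN1 to CCN2 was not detected. Their log2 ratio averaged 3.15 ± 0.355 over the controls and 2.99 ± 0.334 over the si-STRIP2 libraries (SD, n = 3), a difference of -0.16 (2-sided exact permutation test, p = 0.5, adjusted p = 0.5 over 6 ratios). The smallest p that 3 against 3 libraries allows is 0.1, and without si-STRIP2 replicate 1 the difference was 0.028. The 6 ratios between these genes were chosen after their values were seen.

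ANKRD1 (ENSG00000148677, chromosome 10, 90912096 to 90921087, minus strand) encodes a nuclear and sarcomeric ankyrin repeat protein that is strongly driven by YAP in many adherent cells. In HCT116 it had 0, 1 and 1 counts in si-NC and 2, 1 and 3 in si-STRIP2. All 6 values are at or under 3 counts, so that no difference was detectable at this depth and no fold is given. Its relatives ANKRD2, with at most 5 counts, and ANKRD23, with at most 16, were not tested either.

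The angiomotins are scaffold proteins of cell junctions and the actin cytoskeleton that bind YAP and can hold it outside the nucleus. AMOTL2 (ENSG00000114019, chromosome 3, 134355347 to 134375479, minus strand), which is itself induced by YAP, was at 4.83, 5.14 and 5.14 FPKM in si-NC and at 3.25, 3.22 and 2.78 FPKM in si-STRIP2. All si-STRIP2 libraries were below all controls. The mean fell to 61.2% of the control, with a log2 fold change of -0.71 ± 0.070 (SE, edgeR adjusted p = 1.85e-10). AMOTL1 (ENSG00000166025, chromosome 11, 94706431 to 94876748, plus strand) was at 6.37, 6.81 and 6.26 FPKM in si-NC and at 6.33, 6.67 and 6.28 FPKM in si-STRIP2. These groups overlapped, and the log2 fold change was -0.015 with a 95% confidence interval from -0.11 to 0.082 (edgeR adjusted p = 0.816). Its sign turned positive when si-NC replicate 2 (0.014) or si-STRIP2 replicate 1 (0.0026) was left out.

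Since the 2 genes are measured in the same libraries, their ratio does not depend on the scaling between libraries. The log2 ratio of AMOTL2 to AMOTL1 in FPKM averaged -0.36 ± 0.068 over the controls and -1.06 ± 0.107 after targeting STRIP2 (SD, n = 3). All si-STRIP2 libraries lay lower, and the difference of -0.70 had the smallest p possible (2-sided exact permutation test, p = 0.1, adjusted p = 0.12). AMOT, the founding angiomotin, was lower than both in level, at 1.44 ± 0.0608 and 1.48 ± 0.250 FPKM, and was not called (log2 fold change 0.037, edgeR adjusted p = 0.781), with a negative sign, -0.083, without si-STRIP2 replicate 1. AMOTL2 made up 38.9% ± 1.19 of the summed level of the 3 angiomotins in si-NC and 28.0% ± 1.46 in si-STRIP2 (2-sided exact permutation test, p = 0.1, adjusted p = 0.15).

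AJUBA (ENSG00000129474, chromosome 14, 22971177 to 22982551, minus strand) encodes a LIM domain protein that binds LATS kinases at junctions under tension and restrains them. It was at 7.83, 7.51 and 7.02 FPKM in si-NC and at 6.33, 6.53 and 6.47 FPKM in si-STRIP2. The groups did not overlap, and the gap between the lowest control and the highest si-STRIP2 library was smaller than the range of the controls. AJUBA fell by 0.22 ± 0.057 on the log2 scale (SE), or 1.16-fold (edgeR adjusted p = 0.00155). Of its relatives, LIMD1, which also restrains LATS kinases, rose from 1.58 ± 0.111 to 2.03 ± 0.0608 FPKM (log2 fold change 0.36, edgeR adjusted p = 8.89e-05), and WTIP was at 0.20 ± 0.056 and 0.247 ± 0.0404 FPKM and was not called (edgeR adjusted p = 0.168).

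ASAP1 (ENSG00000153317, chromosome 8, 130052104 to 130443674, minus strand) encodes a GTPase-activating protein for ARF proteins that works at focal adhesions and belongs to a published YAP target signature. It was at 11.26, 11.72 and 10.54 FPKM in si-NC and at 7.72, 7.50 and 8.09 FPKM in si-STRIP2. Each si-STRIP2 library lay well below the lowest control. The si-STRIP2 mean was 69.5% of the control, and the log2 fold change -0.53 ± 0.047 (SE, edgeR adjusted p = 1.59e-11). The 5 genes that overlap ASAP1 held 0.716% as many counts. Its relatives ASAP2 (log2 fold change -0.16, edgeR adjusted p = 0.0568) and ASAP3 (0.13, edgeR adjusted p = 0.160) were not called, and the adjusted p of ASAP2 over 16 alternatives ranged from 0.0358 to 0.157, among them 0.0484 without si-NC replicate 1. The overlapping gene ITGB1BP1 held 163% as many counts as ASAP2. Whether the counting used strand is not given in the sources used here, so values of genes with such neighbours are uncertain.

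TEAD1 was the most abundant TEAD transcript in HCT116, and the other family members were at a fraction of its level. TEAD1 (ENSG00000187079, chromosome 11, 12674421 to 12944737, plus strand) was at 24.75, 26.70 and 25.29 FPKM in si-NC and at 19.51, 19.69 and 20.15 FPKM in si-STRIP2. The groups were well apart, and the si-STRIP2 libraries lay close together. TEAD1 fell to 77.3% of the control, by 0.37 ± 0.040 on the log2 scale (SE, edgeR adjusted p = 1.00e-09). With 3683 to 5752 counts per library, TEAD1 had the narrowest confidence interval of the 9 genes, from -0.45 to -0.29.

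TEAD4 (ENSG00000197905, chromosome 12, 2959330 to 3040676, plus strand) moved the other way. It was at 3.93, 4.60 and 3.96 FPKM in si-NC and at 5.80, 5.51 and 5.56 FPKM in si-STRIP2. All si-STRIP2 libraries were above the highest control, which was si-NC replicate 2. TEAD4 rose 1.35-fold, by 0.44 ± 0.097 on the log2 scale (SE, edgeR adjusted p = 0.000284).

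TEAD3 (ENSG00000007866, chromosome 6, 35473597 to 35497079, minus strand) was at 6.99, 6.84 and 6.97 FPKM in si-NC and at 7.27, 7.52 and 7.24 FPKM in si-STRIP2. The groups did not overlap, but the shift was about as large as its standard error, 0.072. TEAD3 had a log2 fold change of 0.078 with a 95% confidence interval from -0.067 to 0.22, and was not called (edgeR adjusted p = 0.367). TEAD2, the remaining member of the family, rose from 6.36 ± 0.351 to 7.90 ± 0.115 FPKM (log2 fold change 0.31, edgeR adjusted p = 0.000531). Its value is uncertain, since CD37 on the opposite strand overlaps it and held 27.7% as many counts.

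**Figure D2:**
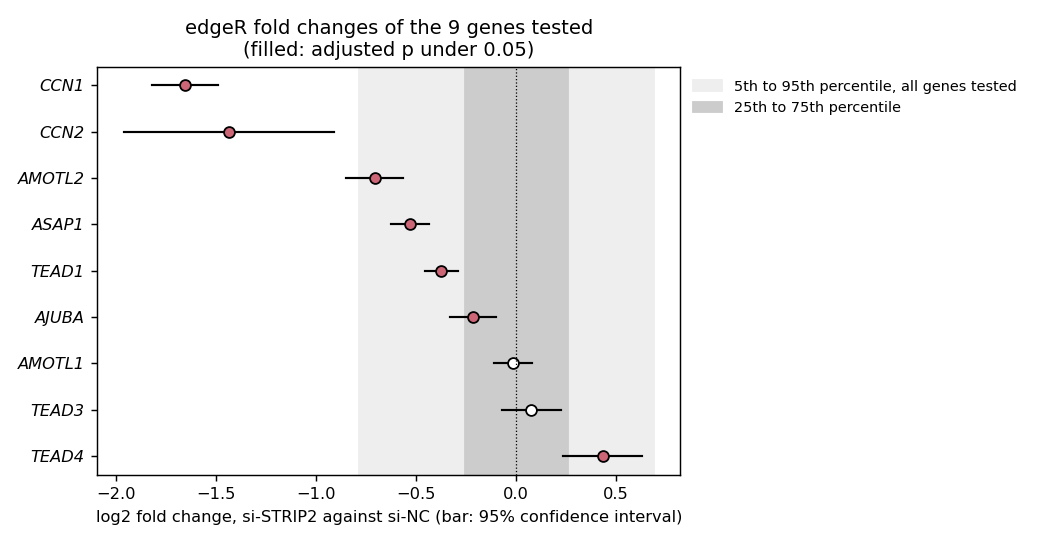
Log2 fold changes (horizontal axis) of the 9 genes tested, with 95% confidence intervals from edgeR and, as grey bands, the spread of all 15687 genes tested. CCN1 and CCN2 lie below the 5th percentile of all genes (-0.79), AMOTL2, ASAP1 and TEAD1 lie between the 5th and the 25th (-0.25), and TEAD4 lies above the 75th (0.26).

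The makeup of the TEAD transcripts differed between the groups. TEAD1 was 59.5%, 59.8% and 59.1% of the summed FPKM of the 4 TEAD genes in the si-NC libraries and 48.2%, 48.6% and 49.2% in the si-STRIP2 libraries. The shares within a group differed by less than 1 percentage point, and the group means were 59.4% and 48.7%. Taken over raw counts, which weigh genes by length, TEAD1 made up 84.7% ± 0.242 of the family (SD, n = 3) in the controls and 78.3% ± 0.304 in the si-STRIP2 libraries, a change of -6.38 percentage points against -10.8 in FPKM. In FPKM, TEAD4 went from 9.66% ± 0.559 to 13.8% ± 0.440 (a change of 4.17 percentage points, and of 1.81 over counts), TEAD2 from 14.8% ± 0.567 to 19.4% ± 0.163 (4.65, and 2.84 over counts), and TEAD3 from 16.1% ± 0.751 to 18.1% ± 0.450 (SD, n = 3). For each of the 4 shares the groups did not overlap, and the 2-sided exact permutation test gave p = 0.1, its smallest value, before and after adjustment over the 4. Shares add up to a fixed sum, so a lower share of TEAD1 is matched by higher shares of other members. TEAD3, whose level was not called, is among them. TEAD2, whose value is uncertain because CD37 overlaps it, enters the family sum and with it every share. Summed over the family, FPKM averaged 43.0 ± 1.53 in the controls and 40.65 ± 0.289 after targeting STRIP2 (2-sided exact permutation test, p = 0.1). Within libraries, the log2 ratio of TEAD1 to TEAD4 went from 2.62 ± 0.0745 to 1.82 ± 0.0571 and that of TEAD1 to TEAD3 from 1.88 ± 0.0732 to 1.43 ± 0.0443.

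**Figure D3:**
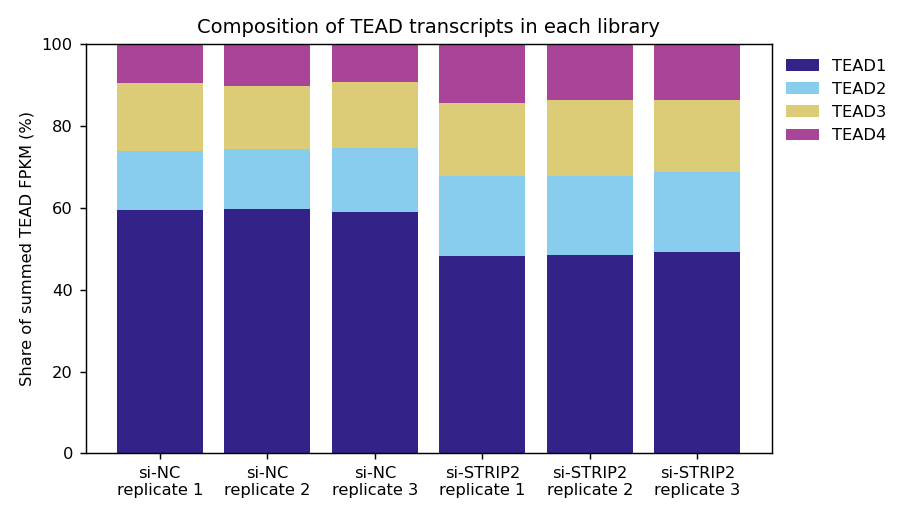
Share (vertical axis, percent) of each TEAD gene in the summed FPKM of TEAD1 to TEAD4, 1 stacked bar per library. TEAD1 takes 59.1% to 59.8% in the si-NC bars and 48.2% to 49.2% in the si-STRIP2 bars, and the TEAD4 segment is taller in every si-STRIP2 bar.

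In si-NC the levels of the 10 genes ran from TEAD1 (25.6 ± 1.01 FPKM) through ASAP1 (11.2 ± 0.595), CCN1 (9.70 ± 0.601), AJUBA (7.45 ± 0.408), TEAD3 (6.93 ± 0.0814), AMOTL1 (6.48 ± 0.291), AMOTL2 (5.04 ± 0.179), TEAD4 (4.16 ± 0.378) and CCN2 (1.10 ± 0.208) to ANKRD1. Neighbours in that order did not overlap, but the gaps around TEAD3 were small: its libraries (6.84 to 6.99) lay between the lowest of AJUBA (7.02) and the highest of AMOTL1 (6.81). In si-STRIP2, TEAD1 (19.8 ± 0.330) still led, followed by ASAP1 (7.77 ± 0.298) and TEAD3 (7.34 ± 0.154), whose values overlapped. There, CCN1 (3.09 ± 0.326) came down to the level of AMOTL2 (3.08 ± 0.263), with overlapping values, and below TEAD4 (5.62 ± 0.155). AJUBA (6.44 ± 0.103) and AMOTL1 (6.43 ± 0.212) also overlapped. Levels of different genes rest on the exonic sizes in the deposited table.

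YAP1, the gene of the coactivator that binds TEAD factors, fell from 49.2 ± 2.64 to 23.8 ± 0.535 FPKM (SD, n = 3), a log2 fold change of -1.05 ± 0.042 (SE, edgeR adjusted p = 2.22e-20). Its paralogue TAZ, encoded by WWTR1, was at 9.15 ± 0.344 and 9.90 ± 0.155 FPKM, a rise of 0.11 on the log2 scale (edgeR adjusted p = 0.0319) whose call was lost under 10 of 16 alternatives (adjusted p from 0.0201 to 0.113 over the 16). Among these were the fits without si-NC replicate 1 (0.0893), si-NC replicate 3 (0.0854), si-STRIP2 replicate 2 (0.113) and si-STRIP2 replicate 3 (0.0807). VGLL4, which competes with YAP for TEAD factors, fell by 0.57 on the log2 scale (edgeR adjusted p = 7.60e-09), but the overlapping gene ATG7 held 82.9% as many counts. VGLL3, at 0.0933 ± 0.0321 and 0.0367 ± 0.00577 FPKM, was also lower (log2 fold change -1.32, edgeR adjusted p = 0.0020), but not on log2(FPKM + 1) (limma adjusted p = 0.114). Of these cofactors, VGLL1 and VGLL2 had 0 counts.

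In the published signature of YAP targets that also holds CCN1, CCN2, ANKRD1, AMOTL2 and ASAP1, 15 of the other 17 genes were tested, of which 4 were lower, 5 higher and 6 not called, with a median log2 fold change of 0.043. Against 27.0% lower and 27.8% higher among all genes tested, these counts are near the background. GADD45A, a stress-induced growth arrest gene, fell from 118.6 ± 3.72 to 54.3 ± 1.43 FPKM (log2 fold change -1.13, edgeR adjusted p = 1.24e-21). F3, the gene of tissue factor, fell by 0.66 on the log2 scale (edgeR adjusted p = 1.86e-11), while AXL, a receptor tyrosine kinase, rose by 0.47 (edgeR adjusted p = 2.35e-10). LATS2, a pathway kinase that YAP induces, was at 3.20 ± 0.150 and 2.94 ± 0.220 FPKM and was not called (edgeR adjusted p = 0.203). FOXF2 had 0 counts and RBMS3 at most 13, and neither was tested.

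A further list of 7 frequently cited YAP or TAZ targets had 5 genes tested, of which 4 were lower and 1 higher (median log2 fold change -0.44), where 27.0% of all genes tested were called lower and 27.8% higher. AREG, the gene of the EGF receptor ligand amphiregulin, fell from 686.7 ± 27.6 to 236.2 ± 3.44 FPKM (log2 fold change -1.54, edgeR adjusted p = 3.40e-24). ARHGAP29, a GTPase-activating protein for RHOA, fell by 0.44 on the log2 scale (edgeR adjusted p = 1.59e-11). BIRC5, the gene of survivin, was the member that rose (0.19, edgeR adjusted p = 0.000240).

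**Figure D4:**
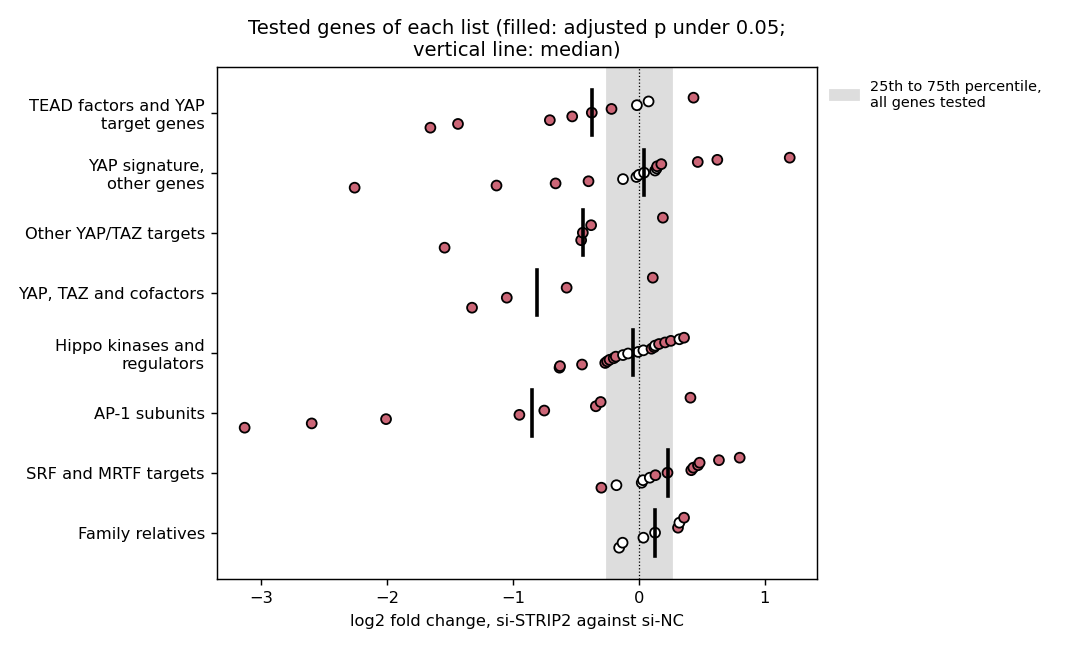
Log2 fold changes (horizontal axis) of the tested genes of 8 lists, with filled dots for genes called by edgeR and a line at the median of each list. The AP-1 list has its median at -0.85, the other genes of the YAP signature lie on both sides of 0 with a median of 0.043, and the SRF and MRTF targets have a median of 0.23.

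Of 20 kinases and regulators upstream of YAP, all tested, 8 were lower, 6 higher and 6 not called (median log2 fold change -0.045). The background over all genes tested was 27.0% lower and 27.8% higher, and the count of higher genes is near it. LATS2 and PTPN14 of this list are also in the YAP signature. The smallest adjusted p-values were those of WWC2 (-0.45, edgeR adjusted p = 1.49e-10) and WWC3 (-0.63, edgeR adjusted p = 1.91e-06), scaffolds that activate LATS kinases, and of TAOK3 (-0.63, edgeR adjusted p = 1.65e-10), a kinase upstream of MST. The value of TAOK3 is uncertain, as the overlapping pseudogene RPS2P5 held 1115% as many counts.

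Subunits of AP-1, which co-occupies many enhancers with TEAD factors, were lower for 7 of 8 tested genes and higher for 1, FOSL1 (0.41, edgeR adjusted p = 6.01e-08), against 27.0% lower and 27.8% higher among all genes tested. JUN went from 14.8 ± 0.786 to 2.42 ± 0.454 FPKM and FOS from 22.1 ± 3.49 to 5.47 ± 0.690 FPKM (SD, n = 3), with edgeR adjusted p-values of 3.11e-23 and 5.41e-20. FOSB had a log2 fold change of -3.13 (edgeR adjusted p = 9.13e-19), and ERCC1, which overlaps it, held 367% as many counts. In a list of 15 targets of the serum response factor SRF and its actin-sensing partner MRTF, more genes were higher than lower. CCN1 and CCN2, targets that SRF and MRTF share with YAP, are not on that list, and both fell. The count thus describes the list and not SRF and MRTF targets as a class. Of 13 tested, 8 were higher, 1 lower and 4 not called (median log2 fold change 0.23), against the same background of 27.8% higher and 27.0% lower. ACTB rose by 0.80 (edgeR adjusted p = 9.91e-17) and ACTG1 by 0.64 (edgeR adjusted p = 1.39e-13) on the log2 scale, and their 11 and 21 pseudogenes in the table held 0.0272% and 0.111% as many counts. VCL, the gene of vinculin, rose by 0.48 (edgeR adjusted p = 2.01e-12), where the overlapping gene AP3M1 held 55.0% as many counts.

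Of the remaining relatives of the 10 genes, CCN3 was at 1.86 ± 0.307 and 1.72 ± 0.0954 FPKM and was not called (log2 fold change -0.13, edgeR adjusted p = 0.484; 0.0044 without si-NC replicate 1). CCN4, CCN5 and CCN6 had at most 6, 3 and 8 counts in any library and were not tested. CCN1 was thus the CCN transcript with the highest level in both groups.

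The genes whose profile over the 6 libraries was nearest to that of CCN1 were SELENOP, SERPINB8 and UCA1. Nearness is the Euclidean distance between log2 CPM values (counts scaled by library total and TMM factor) centred on the si-NC mean. Among 11290 genes with a symbol and a mean of at least 1 FPKM, the distances of these were 0.220, 0.231 and 0.264. SELENOP encodes a plasma selenium carrier and went from 2.47 ± 0.210 to 0.79 ± 0.070 FPKM. SERPINB8, a protease inhibitor, went from 5.60 ± 0.119 to 1.73 ± 0.0651 FPKM, and UCA1, a long noncoding RNA, from 27.0 ± 0.263 to 8.97 ± 0.0833 FPKM (SD, n = 3). Nearest to CCN2 were PDE2A (0.563), GRAMD1B (0.620) and MAML3 (0.625), at greater distances. CCN2 had a coefficient of variation in FPKM of 18.9% among the controls and 35.8% among the si-STRIP2 libraries, against 6.19% and 10.6% for CCN1. MAML3 is uncertain, since MGST2 overlaps it and held 135% as many counts, and the genes that overlap SERPINB8 held 18.3% as many.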

How the data were processed

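Poly(A) RNA was sequenced from 6 libraries made with a directional kit, per the labels' protocols. The submitters' processing notes name bcl2fastq 2.20.0.422, FastQC 0.10.1, cutadapt 1.9.1, HISAT2 2.2.1 and HTSeq 0.6.1 and the build GRCh38.p13, with no role given. Coordinates are those of the deposited table. Per the file headers, the authors deposited raw counts and FPKM values per Ensembl gene. The FPKM values were recomputed from deposited counts, exonic size and column totals and differed by at most 0.005. Genes were filtered with filterByExpr (minimum count 10), leaving 15687, and tested in edgeR 4.0.16 (R 4.3.3) with TMM scaling, group as the only term, the 2-sided quasi-likelihood F test and Benjamini-Hochberg adjustment over all genes tested. Standard errors are the absolute log2 fold change over the square root of F. Alternatives used DESeq2 1.42.0 and limma 3.58.1. Counts of 15687 genes were simulated with 1 shared dispersion. On the log2 scale, 86 genes were changed by 0.5 and 114 by 1.5, of which 79.1% and 97.4% were recovered. Of all calls, 4.28% were false. The other genes were unchanged, whereas 54.8% were called in the data, so recovery there may differ. The 10 genes and all lists were chosen with earlier results of these data known. From each list the 3 tested genes with the smallest adjusted p and every family relative are named, with the 3 genes nearest in profile to CCN1 and CCN2 (ANKRD1 was not tested), and others were named after their values were seen. Some values that this rule covers are not reported here.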

Additional observations from a re-analysis of the deposited data

How the results depend on the processing

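The 7 genes called kept their direction and call under each of 16 alternatives that tested them, and CCN2 did not pass the filter of a mean of at least 1 FPKM. Log2 fold changes ranged from -1.74 to -1.39 for CCN1, -1.77 to -0.58 for CCN2, -0.74 to -0.57 for AMOTL2, -0.57 to -0.47 for ASAP1, -0.39 to -0.35 for TEAD1, -0.26 to -0.17 for AJUBA and 0.36 to 0.50 for TEAD4. AMOTL1 ranged from -0.042 to 0.014 when 1 library was left out, being positive without the second si-NC (0.014) or the first si-STRIP2 library (0.0026), with adjusted p from 0.537 to 0.975 over its alternatives. The cause was not tested. TEAD3 stayed uncalled (adjusted p from 0.156 to 0.561). With at least 1.5-fold required, 3 of these genes were lower and 0 higher, and 1271 and 996 of all genes, by construction of the rule. On raw counts in place of FPKM, which weigh genes by length, the share of TEAD1 changed by -6.38 percentage points, that of TEAD2 by 2.84 and that of TEAD4 by 1.81. With 1 library left out, an alternative chosen after seeing the data, the change in the CCN1 to CCN2 log2 ratio ranged from -0.36 to 0.028, the latter without si-STRIP2 replicate 1.

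With a replicate block, 6 of these genes were lower and 1 higher, and 8293 genes were called in all. Same-numbered libraries did not deviate together (correlations of -0.086, -0.013 and -0.072). With 3 libraries per group, these correlations cannot settle whether the numbers mark pairs. ANKRD1, with at most 3 counts in a library, was too low to test, and CCN2 had at most 54.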
